A study of Mus musculus with 9 samples.

Results

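Guanylate-binding proteins (GBPs) and immunity-related GTPases (IRGs) are large GTPases that cells make in response to interferons. In the mouse, GBPs assemble on microbes and on the membranes that enclose them and help to break these open or to alert inflammasomes, while effector IRGs load onto the vacuoles of intracellular parasites and bacteria. A regulatory subgroup of IRGs, formed by the products of Irgm1, Irgm2 and Igtp, sits on the cell's own membranes and holds the effector proteins inactive there, and Irgm1 is also known for keeping lymphocytes alive during interferon responses. Transcription of both families is driven mainly by factors of the interferon response, IRF1 among them, that bind near the start sites at sequences called GAS (gamma-activated site) and ISRE (interferon-stimulated response element).

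The 9 genes described here are Gbp2, Gbp3, Gbp4, Gbp7, Gbp8, Irgm1, Irgm2, Igtp and Iigp1. They were chosen by name among the 55536 genes of the deposited count table, with earlier results of these data known. All 9 had a row there. The deposited table of log2 CPM (counts scaled to library size, on a log scale, where CPM stands for counts per 1e6) had a row for 8 of them, all but Iigp1. They were measured by RNA-seq in mouse spleen B cells labelled pre-GC, where GC is the usual abbreviation of germinal centre. The libraries comprised 5 of genotype p52Ki, titled p52ki/ki and described as a knock-in of p52, the NF-kB subunit made from Nfkb2, and 4 of genotype WT. The making of the knock-in, the age of the mice, any immunisation and the sort are not stated in the labels. Nor do they say whether each library had a mouse of its own, so the spread behind the p-values may be technical.

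Total counts ran from 4492160 to 6647650 in p52Ki libraries and from 7368604 to 7937579 in WT libraries, and the genes with at least 1 count numbered 15504 to 16634 in p52Ki and 14033 to 14793 in WT. Both measures separated the genotypes (exact two-sided permutation p = 0.0159 and 0.00794, both 0.0159 after adjustment over 2 measures). The p52Ki libraries thus had fewer counts and more genes detected. The part of these values in the results below was not tested. All 6 B cell markers examined were abundant in every library, with a sum of 11000 to 14500 CPM in p52Ki and 9690 to 10900 CPM in WT.

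The sequences just upstream of the RefSeq start sites are shown first. The genes belong to families that are driven through ISRE and GAS sequences, so matches to these letters are a description. RefSeq (build GRCm38.p6) gave windows from 250 bases before to 50 bases after the start for 6 of the 9 genes. Gbp4, Gbp8 and Iigp1 had none in the table. The 120 bases before the start of each are given 5′ to 3′ on the strand of the gene, in lower case, with matches to ISRE (a pair of GAAA separated by NN) or GAS (TTCNNNGAA) on either strand in capitals.
Irgm1 (chr11:48871421-48871540, minus strand): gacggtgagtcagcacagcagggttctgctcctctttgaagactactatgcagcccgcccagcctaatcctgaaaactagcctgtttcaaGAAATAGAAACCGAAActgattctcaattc
Igtp (chr11:58199436-58199555, plus strand): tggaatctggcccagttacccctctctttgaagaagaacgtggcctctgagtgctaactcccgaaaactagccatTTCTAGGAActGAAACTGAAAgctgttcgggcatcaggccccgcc
Irgm2 (chr11:58214857-58214976, plus strand): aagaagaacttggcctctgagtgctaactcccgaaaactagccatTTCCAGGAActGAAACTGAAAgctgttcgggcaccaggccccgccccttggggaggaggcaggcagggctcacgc
Gbp7 (chr3:142530216-142530335, plus strand): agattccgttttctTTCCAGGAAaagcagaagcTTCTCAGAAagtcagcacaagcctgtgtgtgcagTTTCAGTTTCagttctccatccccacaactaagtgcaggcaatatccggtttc
Gbp2 (chr3:142620543-142620662, plus strand): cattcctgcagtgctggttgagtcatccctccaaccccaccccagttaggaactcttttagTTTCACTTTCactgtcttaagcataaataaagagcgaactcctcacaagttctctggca
Gbp3 (chr3:142559924-142560043, plus strand): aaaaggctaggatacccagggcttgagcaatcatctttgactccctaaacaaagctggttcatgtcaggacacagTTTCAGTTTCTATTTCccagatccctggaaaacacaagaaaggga

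All 6 genes had an ISRE match, and 3.44% of the 32851 start-site windows in the table had one. The match began 30 bases before the RefSeq start in Irgm1, 34 in Igtp and 64 in Irgm2. It began 53 bases before in Gbp7, 59 in Gbp2 and 45 in Gbp3. In Irgm1 and Gbp3 a second ISRE match overlapped the first. RefSeq starts can differ from the gene spans of GENCODE, the annotation used for the gene positions given here. The stretches of Irgm1 and Irgm2 lie wholly inside those spans, which begin at 48871683 (minus strand) and 58199618. Those of Gbp2 and Gbp3 lie partly inside. No GAS match overlapped an ISRE match. A GAS match lay in 3 of the 6, with 2 in Gbp7 and 1 each in Igtp and Irgm2, where 8.3% of all windows had one. Igtp and Irgm2 are neighbours, and their upstream stretches shared a run of 38 identical bases against 5 to 13 in every other pair of the 6. A match to the consensus for NF-kB was present in 1 of the 6 (Gbp2, from 7 to 16 bases after the start base) and in 8.46% of all windows, and the ETS core CCGGAAG in 0 of the 6 and in 8.86% of all windows. Gbp3 has another start window in the table, which held none of these motifs. Matches are letters in a window and say nothing of whether a protein was bound.

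**Figure D1:**
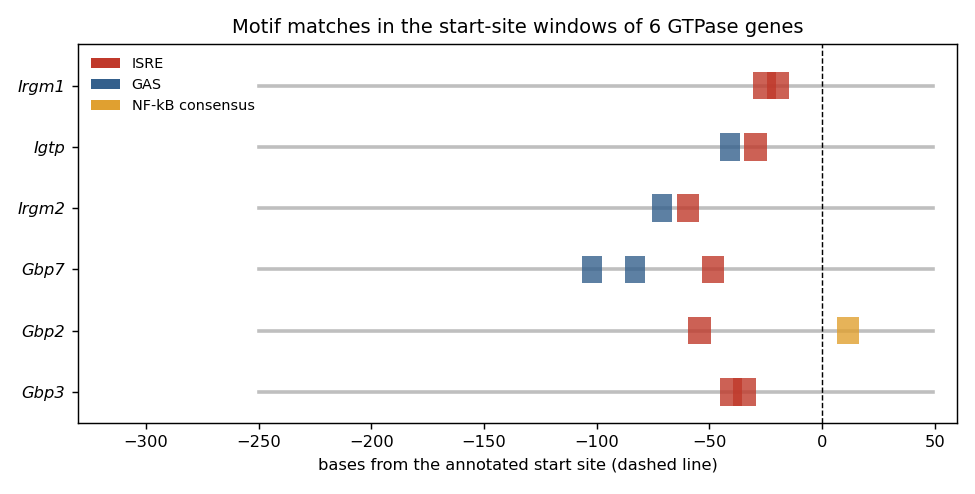
Positions of motif matches in the start-site windows of 6 of the 9 GTPase genes, in bases from the start annotated by RefSeq (dashed line). Each gene has a grey line, with coloured boxes for ISRE, GAS and NF-kB consensus matches on either strand. An ISRE match lies within 64 bases upstream of the start in all 6 genes.

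Between the genotypes, 3 of the 8 genes that could be tested rose in p52Ki, namely Irgm1, Igtp and Gbp7, and 0 fell. Of all 12849 genes tested, 8.53% were called, 4.49% higher and 4.04% lower (edgeR's quasi-likelihood test, Benjamini-Hochberg adjusted p under 0.05). In the same 3 genes every p52Ki library lay above every WT library, a pattern seen in 7.3% of all genes tested, and 0 of the 8 had every p52Ki library below, against 6.53% of all genes. The median log2 fold change of the 8 was 0.74, beside 0.03 over all genes tested. Of the 8, 7 had a positive value, as did 51.8% of all genes. The genes were chosen with earlier results of these data known, so these contrasts with all genes are a description. The summed level of the 9 genes was 280 to 551 CPM in p52Ki libraries and 162 to 230 CPM in WT libraries. In bulk RNA, more cells that express a gene and more RNA per cell cannot be told apart.

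**Figure D2:**
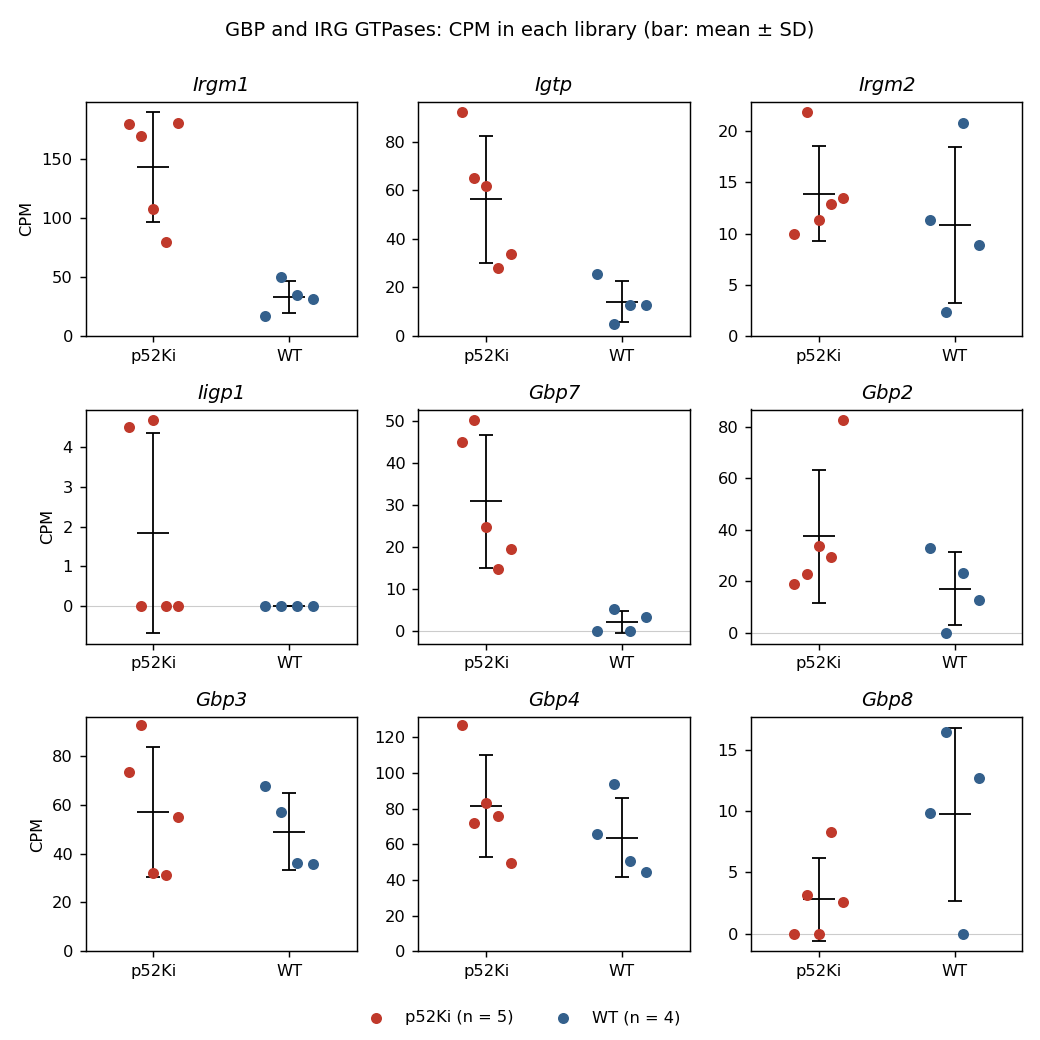
CPM of each of the 9 GTPase genes (one panel per gene, each with its own linear axis), with a point per library, p52Ki (n = 5) left of WT (n = 4), and the mean ± SD in black. The genotypes are separate in Irgm1, Igtp and Gbp7 and overlap in the other panels.

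Of the regulatory IRG genes, Irgm1 (ENSMUSG00000046879, GRCm38 chromosome 11, 48861968 to 48871683, minus strand) had the smallest p. It stood at 179, 169, 107, 79.7 and 180 CPM in p52Ki replicates 1 to 5, against 16.7, 49.7, 34.3 and 31.3 CPM in WT replicates 1 to 4. The lowest p52Ki library was well above the highest WT library. The means were 143 ± 46.5 CPM in p52Ki and 33 ± 13.5 CPM in WT (SD, n = 5 and 4). The fitted log2 fold change was 2.12 ± 0.34 (SE, edgeR adjusted p = 0.00487). No other annotated gene overlaps its exons, and 0% of the 100-base stretches of its transcripts occur in another gene's transcripts. This call held in all 9 fits that left out 1 library (adjusted p up to 0.0162).

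Igtp (ENSMUSG00000078853, chromosome 11, 58199556 to 58207591), also known as Irgm3, had 92, 65.1, 61.9, 27.9 and 33.9 CPM in p52Ki libraries, against 25.6, 5.12, 12.7 and 12.9 CPM in WT libraries. The gap between the genotypes was narrow, between p52Ki replicate 4 and WT replicate 1. The means were 56.1 ± 26 CPM in p52Ki and 14.1 ± 8.49 CPM in WT, and the log2 fold change was 2.0 ± 0.48 (edgeR adjusted p = 0.0256). The call did not survive the omission of WT replicate 3, WT replicate 4, or any of p52Ki replicates 1, 2 and 3 (adjusted p 0.0556 to 0.0672, 5 of 9 such fits), while the log2 fold change stayed between 1.72 and 2.46 in all 9.

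Irgm2 (ENSMUSG00000069874, chromosome 11, 58199618 to 58222782), the neighbour of Igtp with the same 38-base run upstream, did not separate the genotypes. It had 10, 21.9, 11.3, 12.9 and 13.5 CPM in p52Ki libraries and 11.3, 2.35, 20.8 and 8.89 CPM in WT libraries. The log2 fold change was 0.36 ± 0.56 (edgeR adjusted p = 0.791), with a 95% interval from -0.86 to 1.58. WT replicate 2 was lowest for both Igtp and Irgm2, yet highest of the WT libraries for Irgm1. The difference in log2 CPM of Igtp minus Irgm2, not scaled to length, was 1.91 ± 0.86 in p52Ki and 0.50 ± 0.85 in WT (SD, n = 5 and 4), with ranges of 1.10 to 3.16 and -0.70 to 1.16 that overlap. This pair was picked after its values were seen and was not tested. The annotated exons of Igtp and Irgm2 overlap over 162 bases on the same strand, where reads of the pair cannot be told apart.

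Iigp1, an effector IRG that in mice attacks the vacuole of Toxoplasma, was counted in 2 libraries only. It had 31, 0, 29, 0 and 0 counts in p52Ki replicates 1 to 5 and 0 counts in each WT library. Over the summed libraries of each genotype, its p52Ki level of 2.01 CPM was 19.7-fold the 0.102 CPM that 3 counts would give in WT. That limit covers counting error in WT only, and neither the error of the p52Ki counts nor the spread between libraries. The filter on low counts removed Iigp1 from the test. Without that filter it did not pass (edgeR adjusted p = 0.194 over 21491 genes). All 60 counts came from p52Ki replicates 1 and 3, with 29 left without p52Ki replicate 1.

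Among the 5 GBP genes of the 9, Gbp7 had the largest log2 fold change. The protein has been linked in mouse macrophages to the delivery of oxidase and autophagy components to bacterial vacuoles. The gene (ENSMUSG00000040253, chromosome 3, 142530342 to 142550149) had 45.2, 50.3, 24.9, 14.9 and 19.6 CPM in p52Ki libraries, against 0, 5.26, 0 and 3.45 CPM in WT libraries. WT replicates 1 and 3 had 0 counts, which allows up to 0.394 and 0.427 CPM, and the other WT libraries had 38 and 26 counts. The log2 fold change was 3.82 ± 1.07 (edgeR adjusted p = 0.0476), just inside the threshold. That call was lost in 8 of the 9 fits without 1 library, the exception being the one without WT replicate 2 (log2 fold change 4.72, adjusted p = 0.0421), and adjusted p reached 0.111. With limma-voom the log2 fold change was 5.37 (adjusted p = 0.0625) and with limma-trend 4.57 (adjusted p = 0.00746). The separation of the genotypes in CPM does not depend on those fits. Gm43802 overlaps 11.35% of the exon bases of Gbp7 on the same strand, where reads of the pair cannot be told apart.

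Gbp2, Gbp3 and Gbp4 were expressed in both genotypes and none was called. Gbp2, which in the mouse coats Toxoplasma vacuoles and cytosolic bacteria, had 18.9, 22.8, 33.8, 29.6 and 82.6 CPM in p52Ki libraries and 32.8, 0, 23.3 and 12.9 CPM in WT libraries. WT replicate 2 had 0 counts of Gbp2 where the other WT libraries had 97 to 250, and p52Ki replicate 5 was far above the other p52Ki libraries. Gbp2 was not called, at a log2 fold change of 1.12 ± 0.89 (edgeR adjusted p = 0.534). The size depended on the fit, at 2.91 with limma-voom and 2.13 with limma-trend (adjusted p = 0.184 and 0.246), and at 0.70 without WT replicate 2 (edgeR adjusted p = 0.497).

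Gbp3, which lies next to Gbp7 on chromosome 3, had 73.6, 92.8, 32, 31.4 and 55.2 CPM in p52Ki libraries and 67.7, 56.9, 36 and 35.6 CPM in WT libraries (log2 fold change 0.22 ± 0.36, 95% interval -0.57 to 1.0, edgeR adjusted p = 0.808). The genotypes overlapped, with p52Ki replicates 1 and 2 above every WT library, p52Ki replicates 3 and 4 below every WT library and p52Ki replicate 5 among them. The difference in log2 CPM of Gbp7 minus Gbp3, not scaled to length, was -0.90 ± 0.42 in p52Ki and -5.33 ± 2.37 in WT, a comparison picked after its values were seen and not tested. The WT mean and SD of that difference depend on the prior count of 2, since Gbp7 had 0 counts in WT replicates 1 and 3. Gbp4, of the chromosome 5 cluster, had 127, 72.1, 83.2, 75.7 and 49.5 CPM in p52Ki libraries and 66, 93.9, 50.9 and 44.2 CPM in WT libraries (0.36 ± 0.30, 95% interval -0.29 to 1.0, edgeR adjusted p = 0.554).

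Gbp8, also on chromosome 5 (105014150 to 105139540, minus strand), was the only one of the 8 with a negative value. It had 0, 3.17, 0, 8.27 and 2.61 CPM in p52Ki libraries and 9.84, 16.5, 0 and 12.7 CPM in WT libraries. Apart from WT replicate 3, which had 0 counts, each WT library lay above each p52Ki library. The log2 fold change was -1.79 ± 1.43 and did not pass (edgeR adjusted p = 0.537), with a 95% interval from -4.92 to 1.34. Without p52Ki replicate 4 it was -2.74 (edgeR adjusted p = 0.373).

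**Figure D3:**
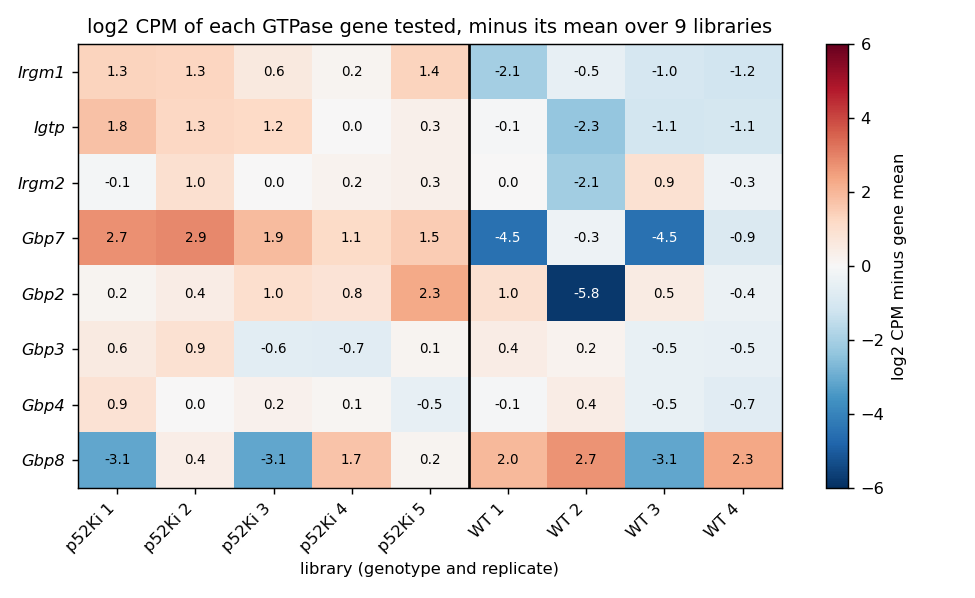
log2 CPM of the 8 GTPase genes tested, minus each gene's mean over the 9 libraries, with a row per gene, p52Ki libraries left of the black line and WT libraries right of it. Irgm1, Igtp and Gbp7 are positive in every p52Ki library and negative in every WT library. Gbp2 in WT replicate 2 is the lowest cell, at -5.805.

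On a scale of CPM per kilobase of merged exons, Igtp (27.8 ± 12.8) and Irgm1 (24.6 ± 8.01) were highest in p52Ki, followed by Gbp3 (17.5 ± 8.16), Gbp2 (14.9 ± 10.3), Gbp4 (10.9 ± 3.81), Gbp7 (5.51 ± 2.82), Irgm2 (3.77 ± 1.26), Gbp8 (0.816 ± 0.983) and Iigp1 (0.315 ± 0.432). Read within each p52Ki library, 3 of the 8 neighbouring pairs in that order kept it in all 5, namely Irgm1 above Gbp3, Gbp4 above Gbp7 and Irgm2 above Gbp8. In WT, Gbp3 was highest at 15 ± 4.88 CPM per kilobase, followed by Gbp4 (8.51 ± 2.95), Igtp (6.95 ± 4.2), Gbp2 (6.86 ± 5.6), Irgm1 (5.68 ± 2.33), Irgm2 (2.93 ± 2.07), Gbp8 (2.84 ± 2.05), Gbp7 (0.388 ± 0.467) and Iigp1 (0). Of the 8 neighbouring pairs in WT, 1 kept its order in all 4 libraries, Gbp3 above Gbp4, and the order of the others varied between libraries.

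**Figure D4:**
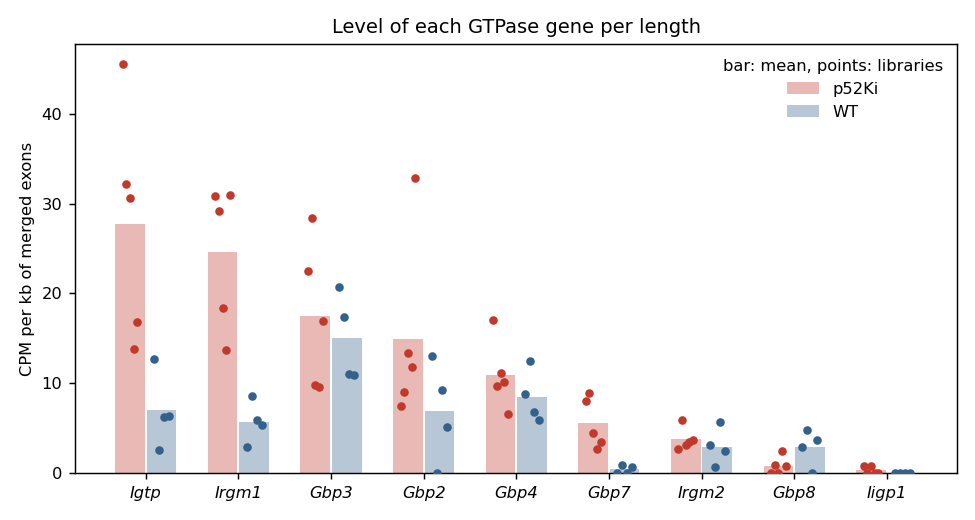
CPM per kilobase of merged exons for the 9 GTPase genes, as bars for the mean and points for libraries, p52Ki left of WT, in order of the p52Ki mean on a linear axis. Igtp leads in p52Ki at 27.8 and Gbp3 in WT at 15.

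Of the 19 other GBP and IRG genes on the list of relatives, 17 had a count in at least 1 library and 12 were tested. The test called 6 of them higher and 0 lower, where 4.49% of all genes were called higher, and their median log2 fold change was 1.59. This list too was chosen with earlier results of these data known. Gbp9, whose annotated span on chromosome 5 overlaps those of Gbp4 and Gbp8, had 179, 158, 142, 93.9 and 102 CPM in p52Ki libraries and 28.1, 55.6, 91 and 43.5 CPM in WT libraries (log2 fold change 1.31 ± 0.33, edgeR adjusted p = 0.0293). The libraries did not overlap, by a small margin between p52Ki replicate 4 and WT replicate 3. Omitting any of WT replicates 1, 2 and 4 or of p52Ki replicates 1, 2 and 3 took its adjusted p past the threshold, to at most 0.0779.

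The effector IRG gene Ifi47, also called Irgd, averaged 117 ± 13.1 CPM in p52Ki and 50.8 ± 15.9 CPM in WT (1.21 ± 0.24, edgeR adjusted p = 0.0118). 9930111J21Rik1 and 9930111J21Rik2, a pair of IRG genes on chromosome 11, as is Irgm1, had log2 fold changes of 1.33 ± 0.20 and 1.52 ± 0.21 (edgeR adjusted p = 0.00386 and 0.00263). Tgtp2, or Irgb6, which docks on Toxoplasma vacuoles early, rose by 1.83 ± 0.38 (edgeR adjusted p = 0.0148), while its near-copy Tgtp1 had a value of -0.06 ± 0.69 (edgeR adjusted p = 0.979). Gvin1, of the very large interferon-inducible GTPases, rose by 2.38 ± 0.50 (edgeR adjusted p = 0.0153). Copies share much of their sequence: of 100-base stretches, 73.15% of Tgtp1 and 76.79% of Tgtp2 occur in another gene's transcripts, 70.55% and 48.3% of the 2 Rik genes, and 97.78% of Gvin1, so the values of single copies are uncertain. The 9 GTPase genes have at most 10.01% of such stretches, in Gbp7.

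Gbp5, which promotes inflammasome assembly, had 138 counts in p52Ki and 10 in WT and did not pass (3.75 ± 1.31, edgeR adjusted p = 0.109), though DESeq2 and limma-trend called it (lowest adjusted p 0.0173). Gm12185 had 61 counts, in 4 of the p52Ki libraries, and 0 in WT, and Gbp2b, also known as Gbp1, had 4 counts in 1 p52Ki library. Irgq, a divergent relative, was at 17.6 ± 13.3 CPM in p52Ki and 33.5 ± 8.15 CPM in WT (-0.92 ± 0.49, edgeR adjusted p = 0.315).

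**Figure D5:**
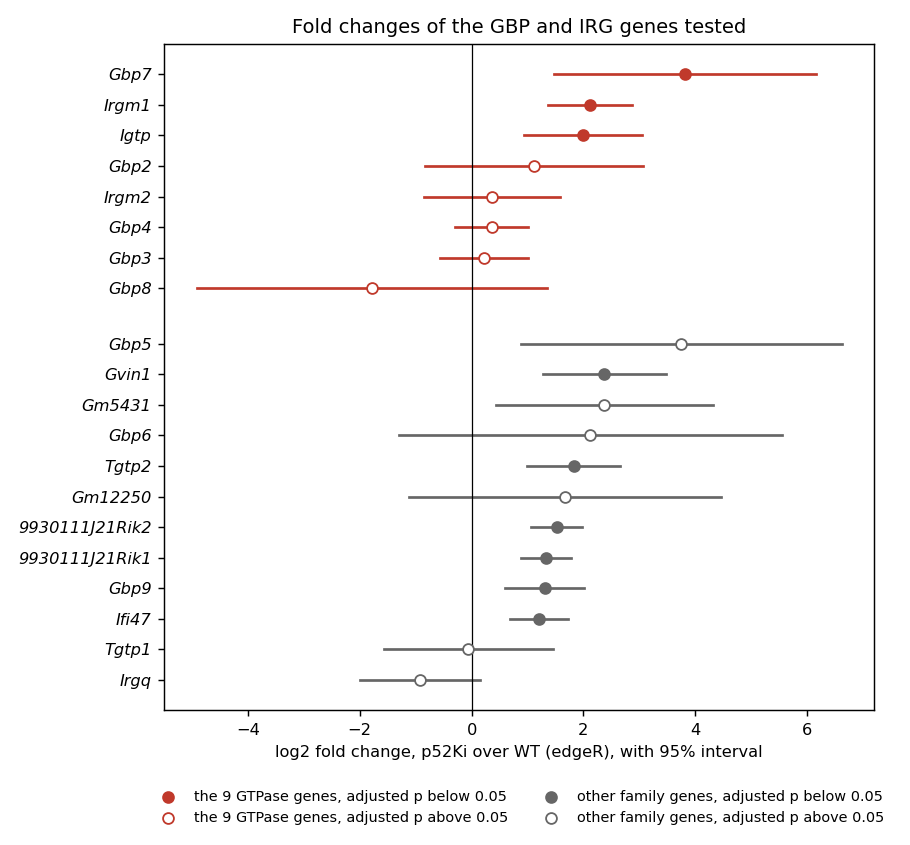
log2 fold change of p52Ki over WT for the 8 GTPase genes tested (red) and 12 other GBP and IRG genes tested (grey), with 95% intervals from the edgeR fit. Filled points have an adjusted p under 0.05, and these are 3 red and 6 grey points, all right of 0.

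Interferon receptor and signalling genes numbered 17, of which 2 rose and 0 fell. Their median log2 fold change was 0.58, beside 0.03 over all genes tested, of which 4.49% were called higher and 4.04% lower, so a count of 2 in 17 is not far from that share. Ifngr2, the signalling chain of the interferon gamma receptor, had 77.2 ± 9.6 CPM in p52Ki and 35.1 ± 11.9 CPM in WT (1.14 ± 0.26, edgeR adjusted p = 0.0195). Ifnar1, a chain of the type I interferon receptor, had 129 ± 32.3 CPM in p52Ki and 72.9 ± 14.5 CPM in WT (0.82 ± 0.22, edgeR adjusted p = 0.0397). Irf1, a factor that binds ISRE sequences after interferon gamma, was at 123 ± 29.9 CPM in p52Ki and 82 ± 34.1 CPM in WT and did not pass (edgeR adjusted p = 0.311). Irf8, a factor of the same family that B cells express in abundance, was at 973 ± 130 CPM in p52Ki and 937 ± 138 CPM in WT (edgeR adjusted p = 0.882).

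Of the interferon genes, Ifng, Ifnb1, Ifnl2 and Ifnl3 were examined. Ifng, the gene for interferon gamma, had 35 counts over the p52Ki libraries and 2 over the WT libraries and was too low to be tested, and the other 3 had 0 counts in all 9. Il12a, a subunit of the cytokine that elicits interferon gamma, rose by 1.95 ± 0.44 (edgeR adjusted p = 0.0192), and Il12b, its partner in that cytokine, had 0 counts in all 9. None of 14 genes for the conjugation machinery and adaptors that guide GTPases to vacuoles passed (edgeR), nor any of 5 for prenylation, which attaches lipids to some GBPs, nor any of 7 inflammasome genes tested. As 8.53% of all genes were called, lists this short are near that share with 0 calls. Their median log2 fold changes were 0.31, 0.11 and 0.42. Atg16l1 and Pycard were nearest (edgeR adjusted p = 0.0783 and 0.0591).

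The 5 genes whose profile over the 9 libraries was most like the mean profile of the 8 GTPase genes were Pltp, Nrros, Dhx58, Hsp90b1 and Ube2q2. Likeness was the root mean square difference between centred log2 CPM values, which was 0.229, 0.235, 0.242, 0.252 and 0.272 for them. The 8 genes themselves were 0.726 (Gbp3) to 2.489 (Gbp8) from their own mean. The 5 were chosen for their small distance, which is therefore a description. Dhx58, an RNA sensor of the interferon response also called LGP2, had 61.5 ± 16.2 CPM in p52Ki and 22.2 ± 3.6 CPM in WT.

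Macrophages, dendritic cells and T cells express GBPs and IRGs too, so markers of these were examined. The 10 macrophage and monocyte markers were all counted somewhere, summed to 97.1 to 202 CPM in p52Ki and 44.5 to 156 CPM in WT, and none passed (edgeR). Their median log2 fold change was 0.06 over the 7 tested, from -0.39 for C1qc to 1.92 for Lyz2, which had 13 to 65 CPM in p52Ki and 3.55 to 11.7 CPM in WT (edgeR adjusted p = 0.0685). Fcgr1 and Cd14 were counted in 1 p52Ki library each and were at 0 in every WT library. The 8 T cell markers summed to 76.9 to 201 CPM in p52Ki and 188 to 256 CPM in WT, mostly from Lck. The highest library values in p52Ki and WT were 4.14 and 0.263 CPM for Cd3d, and 0.306 and 1.05 CPM for Cd3e. They were 3.91 and 2.49 CPM for Cd3g, and 4.29 and 4.73 CPM for Cd4. Cd8a and Cd8b1 reached 2.76 and 1.59 CPM in p52Ki and had 0 counts in WT. Thy1 had 0 counts in p52Ki and reached 0.265 CPM in WT. The 7 NK cell markers summed to 1.06 to 26.3 CPM in p52Ki and 0 to 13.4 CPM in WT. Counts in p52Ki and WT were 131 and 12 for Prf1, 70 and 35 for Gzma, and 67 and 24 for Nkg7. They were 53 and 3 for Klrk1, 41 and 8 for Gzmb, 25 and 0 for Klrb1c, and 29 and 32 for Ncr1. Only Prf1 could be tested, and it did not pass (edgeR adjusted p = 0.331). The 7 dendritic cell markers summed to 13.2 to 40.1 CPM in p52Ki and 45.2 to 67.7 CPM in WT, mostly Flt3, which was called lower (edgeR adjusted p = 0.0266). Too low to be tested were Itgax (74 counts in p52Ki and 0 in WT), Siglech (63 and 0), Clec9a (19 and 0), Zbtb46 (26 and 55) and Xcr1 (0 and 14), and Cd209a had 0 counts. Of 6 neutrophil markers 5 had 0 counts in all 9 libraries. The 7 endothelial and stromal markers summed to 115 to 265 CPM in p52Ki and 39.2 to 107 CPM in WT. Most of this was Pecam1, which was called higher (edgeR adjusted p = 0.0256). Vwf (0 counts in p52Ki and 73 in WT), Cdh5 (14 and 17), Kdr (11 and 0) and Pdgfrb (4 and 0) were too low to be tested. Col1a1 and Col3a1 had 0 counts. The 6 erythroid markers summed to 9.81 to 24.1 CPM in p52Ki and 6.96 to 24.1 CPM in WT. The part of any of these markers in the results was not tested.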

How the data were processed

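RNA of 5 p52Ki and 4 WT libraries was sequenced from SMARTSeq v2 cDNA, per the labels' protocols, a method for little RNA that keeps no strand and no molecular identifiers. HISAT2 2.1.0, SAMtools 1.8, featureCounts of Subread 1.6.2 and GRCm38 are named in the submitters' processing notes. Neither the annotation release nor the treatment of multi-mapping reads is given there. The authors deposited a table of raw counts and one of log2 CPM for 12849 genes, and the second equalled edgeR's log CPM on TMM sizes with prior count 2 (largest difference 4.97e-14).

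Counts were tested in R 4.3.3 with edgeR 4.0.16 (filterByExpr, TMM, robust quasi-likelihood F test, no covariate), adjusted by Benjamini-Hochberg over 12849 genes with a threshold of 0.05. Each standard error is the absolute log2 fold change divided by the root of its F statistic. CPM were computed with TMM sizes. Upper limits for 0 counts use 3 counts and cover counting error only. Total counts of 4492160 to 7937579 set the precision, and the biological coefficient of variation was 0.567.

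Positions, merged exon lengths and sequence shared between genes are from GENCODE M21 on GRCm38, where 55450 of 55536 identifiers were found. Motifs were searched on both strands of RefSeq start-site windows.

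The 9 genes and the lists were chosen with earlier results of these data known. All 9 are named whatever their result, lists of up to 20 genes may be named in full, and 5 genes are named by likeness, leaving out predicted genes, pseudogenes, and immunoglobulin, T cell receptor, ribosomal and mitochondrial genes. Alternatives were DESeq2 1.42.0, its size factors, 2 filters, removal of antigen receptor genes, a replicate block, each library left out, 2 limma 3.58.1 fits and, chosen after seeing the data, a GC and length correction.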

Additional observations from a re-analysis of the deposited data

Results flagged for a closer look

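Gbp2 in p52Ki replicate 5, at 82.6 CPM, stood far above the other p52Ki libraries, which ran from 18.9 to 33.8 CPM. The gap took up 0.766 of the group's range, beyond Dixon's critical value of 0.71 for 5 samples. It was the only extreme value among the 17 groups of libraries examined over the 9 GTPase genes, and chance gives about 1 in 20. With p52Ki replicate 5 left out, the value for Gbp2 was 0.63 (log2, edgeR adjusted p = 0.791), against 1.12 with it, and neither passed.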

How the results depend on the processing

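The edgeR test called 1096 genes (577 higher and 519 lower in p52Ki), and DESeq2 1766 (995 higher, 7.77% of genes tested, and 771 lower). The count of GTPase genes called higher, 3, was also 3 under the DESeq2 size factors, no filter, a stricter filter, antigen receptor gene removal, DESeq2, limma-trend and the GC and length correction (chosen after seeing the data), and 2 under limma-voom, where Gbp7 had an adjusted p of 0.0625. None was called lower under any setting. Leaving out 1 library gave 625 to 1108 genes, 344 to 551 higher and 262 to 557 lower, 1 to 3 of the 9 GTPase genes higher and 5 to 8 of their relatives, and only Irgm1 of the 9 was called when WT replicate 3, WT replicate 4 or one of p52Ki replicates 1 to 3 was omitted. The share of calls that were higher was 52.6%, against 75.2% with the replicate block. That fit called 129 genes (97 higher, 32 lower), 0 of the 9 GTPase genes (Irgm1 adjusted p 0.0527, Igtp 0.0693, Gbp7 0.137) and 2 of the 12 relatives tested (6 without the block). Replicate numbers are not said to pair libraries, same-numbered libraries correlated at -0.042 to -0.00898 in their deviations, 0 of 4 correlated best with its own number, and p52Ki replicate 5 has no partner. Gbp3 turned to -0.029 without p52Ki replicate 2. Tgtp1, at -0.06, turned to 0.24 with the block, 0.28 under both limma fits, 0.014 with the correction, and ranged from -0.39 to 0.41 with 1 library left out, being positive in 4 of the 9 fits. The causes were not tested. Without the low-count filter the median log2 fold change of all genes was 0.18, beside 0.23 for Gbp3, 0.38 for Irgm2 and 0.38 for Gbp4. Gbp2, Gbp7, Gbp8 and Iigp1 each had 0 counts in at least 1 library, where the 3-count limit bounds what could be seen.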
